A study of Mus musculus with 12 samples.

Results

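The 34 genes described here encode the machinery with which a mammalian cell makes cholesterol and long-chain fatty acids, together with the proteins that sense sterol and adjust that machinery. They were taken as a list of gene symbols grouped by function, with a rule that uses no measured value. The list itself was chosen with earlier results of these data known. Each symbol matched 1 Ensembl identifier. All 34 were among the 15001 genes with enough reads to be tested, out of 56941 gene identifiers in the table. By role they comprised 6 regulators and carriers, 7 enzymes from acetyl-CoA to farnesyl diphosphate, 11 enzymes from farnesyl diphosphate to cholesterol, 4 enzymes of fatty acid synthesis, and 6 desaturases and elongases.

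Cells sense sterol in the membrane of the endoplasmic reticulum. When sterol is plentiful, the Insig proteins hold Scap and its cargo, the precursors of the transcription factors Srebf1 and Srebf2, in that membrane. When sterol is scarce, Scap carries the precursors to the Golgi apparatus, where proteases release the active factors, which raise transcription of the synthesis genes. Srebf2 acts mainly on sterol genes and Srebf1 mainly on fatty acid genes. Macrophages use the same system to balance the lipid they take up by phagocytosis against the lipid they make, and Srebf1 and several desaturase genes also respond to oxysterols through the liver X receptors.

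The samples were RAW264.7 cells, a transformed murine macrophage line, seeded on porous culture inserts in medium with fetal bovine serum. In 6 control samples the cells carried an agarose cushion alone, and in 6 compressed samples the cushion carried a printed weight that gave 0.14 kPa of compressive stress. Both groups were taken after 24 h, so the cushion and the time are shared and the weight alone differs by design. RNA was sequenced in bulk, in which fewer cells of a type and less RNA per cell cannot be told apart, and nothing in the labels tells whether each sample was its own culture. The p-values therefore describe the spread among the samples as sequenced, a spread that may be technical.

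Library totals were 37948795 to 40463545 counts in control and 33460807 to 39103987 in compressed samples. Mitochondrial genes took 2.93% to 3.52% of the counts, with overlapping ranges in both groups. All 9 macrophage markers looked at were measured, with a summed level of 5454 to 5862 counts per 1000000 counts (CPM) in control and 6642 to 7809 CPM in compressed samples. The part of this difference in the results below was not tested. Markers of fibroblasts, epithelium, endothelium, fat cells, hepatocytes and T cells summed to at most 1.24 CPM for any of these types in any library. Among them, Col3a1, Adipoq, Lep, Ttr, Serpina1a, Cd3e and Cd8a had no count in any library.

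One library stood apart from the rest of its group. Across tested genes, log2 CPM in compressed replicate 6 correlated at 0.968 to 0.975 with the other compressed libraries, which correlated at 0.994 to 0.996 with each other. Its values departed with transcript length. Genes with long transcripts were lower and genes with short transcripts higher than in compressed replicates 1 to 5, so fold changes of the 34 genes, counts of calls and orders of level are also given without it.

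The synthesis genes moved mostly downwards under compression. With all 12 libraries, 24 of the 34 genes fell and 2 rose (edgeR's quasi-likelihood test, Benjamini-Hochberg adjusted p of 0.05 or less over all tested genes), against 21.9% of all tested genes called lower and 24.5% called higher. The median log2 fold change was -0.26 over the 34 genes and 0.02 over all tested genes, and 31 of the 34 estimates were negative. In 24 genes the compressed and control libraries did not overlap, against 33.6% of tested genes, and these were the 2 that rose and 22 of those that fell. Without compressed replicate 6, 29 genes fell and 3 rose, against 32.2% of tested genes called lower and 33.8% called higher, and the median was -0.30. Each of the 24 genes that fell with all libraries also fell without that library.

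The changes were modest in size. The estimates ran from -0.83 for Elovl6 to 0.64 for Insig2 on the log2 scale, so no gene of the 34 changed by as much as 1 log2 unit. The 2 genes that rose were Insig2, one of the proteins that hold back the Srebf precursors, and Acss2, which makes acetyl-CoA from acetate. The 8 genes that did not pass the test were Srebf2, Pmvk, Mvd, Fdps, Fdft1, Tm7sf2, Msmo1 and Acly.

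**Figure D1:**
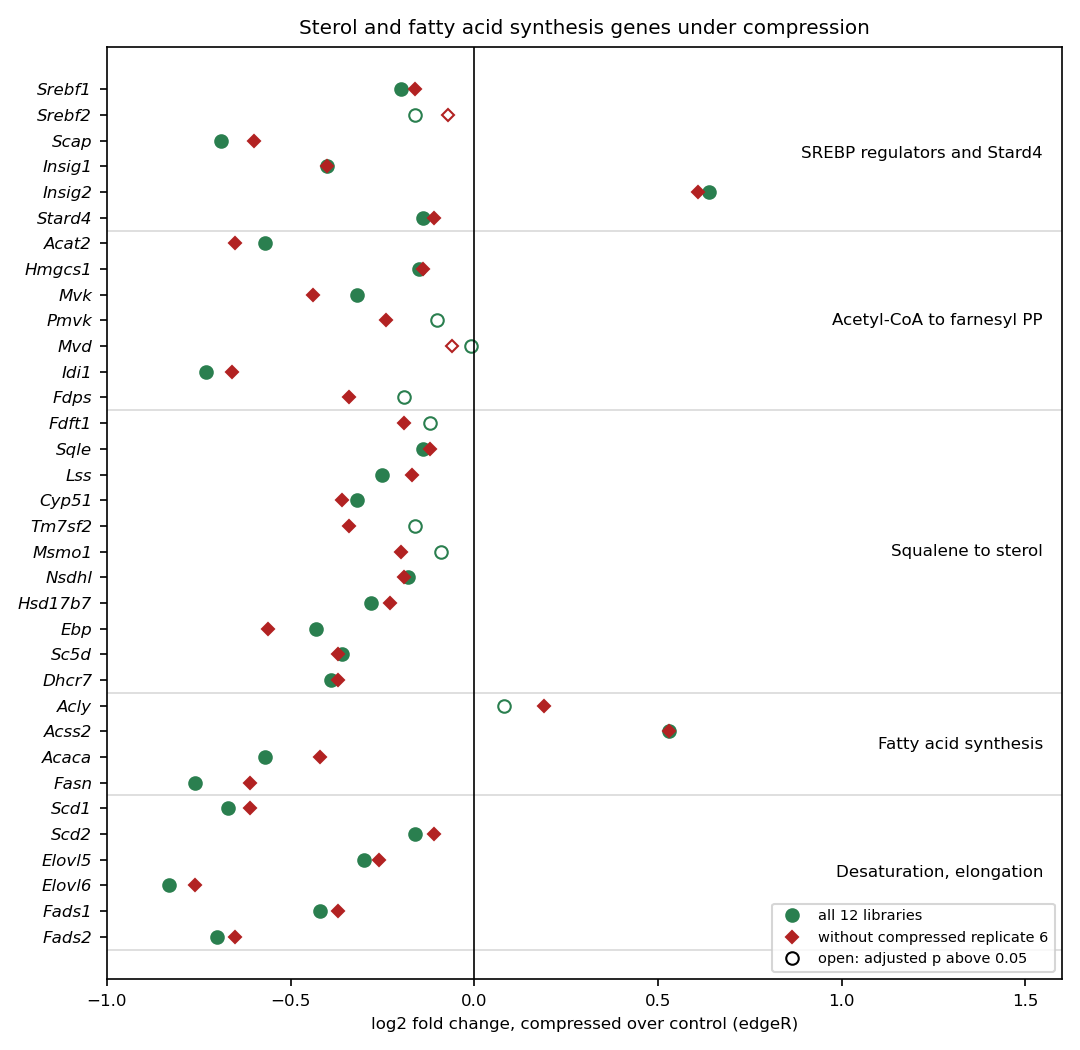
Log2 fold change of each of the 34 genes, compressed over control, grouped by role, from edgeR with all 12 libraries (circles) and without compressed replicate 6 (diamonds); open symbols have an adjusted p above 0.05. Most points lie left of 0, and those of Insig2, Acss2 and Acly lie right of it. Pmvk, Fdps, Fdft1, Tm7sf2 and Msmo1, all lower, and Acly, higher, pass the test without compressed replicate 6 but not with it.

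The promoters below belong to genes chosen for the letters they hold or for the direction of their change. Hmgcs1, Srebf2 and Msmo1 hold a form of the sterol regulatory element, the letters that Srebf proteins bind, and Insig1 beside Insig2 and Acss2 sets a gene that fell beside the 2 that rose. The sequences are from RefSeq on GRCm38.p6, 5′ to 3′ on the strand of the gene, from 200 bases before the start site to the base just before it. Capitals mark TCACNCCA, CCAAT and GGGCGG or the reverse complement of each. RefSeq gave 3 start sites for Insig2.
Hmgcs1, chr13:119690151-119690350, plus strand: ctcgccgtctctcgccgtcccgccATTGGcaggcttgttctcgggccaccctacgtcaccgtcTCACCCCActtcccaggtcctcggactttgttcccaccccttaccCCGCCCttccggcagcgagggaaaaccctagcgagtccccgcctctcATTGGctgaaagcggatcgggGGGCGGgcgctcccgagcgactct
Srebf2, chr15:82147069-82147268, plus strand: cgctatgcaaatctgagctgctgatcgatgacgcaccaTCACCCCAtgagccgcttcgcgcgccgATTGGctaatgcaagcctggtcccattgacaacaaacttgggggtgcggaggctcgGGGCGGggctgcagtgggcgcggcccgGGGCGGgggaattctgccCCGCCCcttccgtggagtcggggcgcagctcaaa
Msmo1, chr8:64733579-64733778, minus strand: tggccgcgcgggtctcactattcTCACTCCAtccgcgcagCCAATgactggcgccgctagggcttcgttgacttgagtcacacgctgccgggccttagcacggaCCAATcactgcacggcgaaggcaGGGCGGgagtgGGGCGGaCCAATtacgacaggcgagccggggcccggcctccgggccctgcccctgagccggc
Insig1, chr5:28071212-28071411, plus strand: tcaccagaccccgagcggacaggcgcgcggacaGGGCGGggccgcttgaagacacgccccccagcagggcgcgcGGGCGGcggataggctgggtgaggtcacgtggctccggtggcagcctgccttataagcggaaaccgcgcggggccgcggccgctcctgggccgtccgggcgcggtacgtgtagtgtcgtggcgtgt
Insig2, chr1:121327679-121327878, minus strand: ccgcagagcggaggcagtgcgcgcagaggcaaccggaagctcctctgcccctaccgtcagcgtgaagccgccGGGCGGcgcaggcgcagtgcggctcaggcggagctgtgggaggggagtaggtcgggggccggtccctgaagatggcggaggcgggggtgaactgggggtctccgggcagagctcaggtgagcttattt
Insig2, chr1:121328025-121328224, minus strand: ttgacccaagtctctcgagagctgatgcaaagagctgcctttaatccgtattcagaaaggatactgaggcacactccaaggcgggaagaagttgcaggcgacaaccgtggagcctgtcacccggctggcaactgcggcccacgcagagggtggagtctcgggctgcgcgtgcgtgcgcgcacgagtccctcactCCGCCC
Insig2, chr1:121332590-121332789, minus strand: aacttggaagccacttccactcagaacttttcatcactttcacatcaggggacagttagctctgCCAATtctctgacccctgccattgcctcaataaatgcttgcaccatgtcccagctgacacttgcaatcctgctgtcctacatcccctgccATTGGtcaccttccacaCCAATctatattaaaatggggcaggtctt
Acss2, chr2:155517843-155518042, plus strand: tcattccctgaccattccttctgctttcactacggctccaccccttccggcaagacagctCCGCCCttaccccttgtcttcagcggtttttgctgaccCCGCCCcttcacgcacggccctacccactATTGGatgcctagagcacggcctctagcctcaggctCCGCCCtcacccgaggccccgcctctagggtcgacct

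A promoter of 250 bases before to 50 after the start site was found for 27 of the 34 genes, by symbol, with 35 promoters in all. None was found for Stard4, Fdps, Fdft1, Sqle, Scd1, Scd2 and Fads1. The full sterol regulatory element TCACNCCAC occurred on either strand in 1 of the 27, Hmgcs1, at position -137 from its start site. Of the 9631 tested genes with a promoter, 1.35% held it. By promoter it was in 1 of 35, against 1.24% of all 32851 promoters. Its shorter core TCACNCCA, which lies within the full element, occurred in 3 of the 27, also in Srebf2 at position -162 and in Msmo1 at position -177 from the start site. That core was found in 4.59% of tested genes with a promoter. By promoter it was in 3 of 35, against 4.36% of all promoters. The E-box form TCACGTGA occurred in 0 of the 27, against 2.20% of tested genes with a promoter. By promoter it was in 0 of 35, against 0.974% of all promoters. Letters were matched exactly, so other forms of the E-box or of the sterol regulatory element were not counted.

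Letters bound by general partner factors were more frequent. CCAAT, the letters of the NF-Y factor, occurred in 22 of the 27 genes (81.5%), against 43.2% of tested genes with a promoter. By promoter it was in 23 of 35, against 37.4% of all promoters. GGGCGG, the letters of Sp1, occurred also in 22 of the 27 genes, against 67.9% of tested genes with a promoter. By promoter it was in 26 of 35, against 35.7% of all promoters. The genes of the 27 without CCAAT were Scap, Acat2, Acaca, Elovl6 and Fads2. A match describes letters in a window and is no measure of binding. Of the 3 genes with the core element, Hmgcs1 fell and the other two did not pass the test with all libraries.

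Among the regulators, 4 of 6 fell, 1 rose and 1 did not pass the test, with a median log2 fold change of -0.18 (-0.14 without compressed replicate 6). Scap, the escort of the Srebf precursors, fell most, from 87.5 ± 3.16 CPM to 54.4 ± 9.21 CPM (mean ± SD, n = 6 per group), a log2 fold change of -0.69 (standard error, SE, 0.10, adjusted p = 8.78e-05), or -0.60 without compressed replicate 6. The highest compressed library for Scap, 61.9 CPM, was below the lowest control, 82.4 CPM.

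Srebf1 was at 167 to 177 CPM in control libraries (median 173) and at 131 to 163 CPM in compressed libraries (median 152). All compressed values lay below all controls, the lowest in compressed replicate 6. The log2 fold change was -0.20 (SE 0.052, adjusted p = 0.00663), and -0.16 without that library. Srebf2 was at 350 to 370 CPM in control libraries (median 359) and at 217 to 367 CPM in compressed libraries (median 340.0). Its groups overlapped, with compressed replicate 6 far below the other 5, which held 324 to 367 CPM. The log2 fold change of Srebf2 did not pass the test with all libraries (-0.16, adjusted p = 0.222) or without compressed replicate 6 (-0.07, adjusted p = 0.0627). It passed when each library's trend with transcript length was removed before the test (-0.13, adjusted p = 0.00935).

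The Insig genes moved in opposite directions. Insig1, itself a target that Srebf proteins raise, was at 92.2 to 97.2 CPM in control libraries (median 96.1) and at 69.1 to 74.9 CPM in compressed libraries (median 72.1). The groups were separate, and compressed replicate 6, at 70.8 CPM, lay within its group. Insig1 fell by 24.3%, a log2 fold change of -0.40 (SE 0.039, adjusted p = 1.56e-06), and its estimate was -0.40 without that library as well. Insig2, which is known to be governed largely by other signals than Srebf, was at 23.7 to 26.8 CPM in control libraries (median 23.9) and at 34 to 43.3 CPM in compressed libraries (median 38.8). Every compressed library exceeded every control. Insig2 rose 1.56-fold, a log2 fold change of 0.64 (SE 0.059, adjusted p = 9.98e-07), and its estimate was 0.61 without compressed replicate 6.

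Stard4, a soluble carrier that moves sterol between membranes, was at 95.8 ± 2.93 CPM in control and 86.8 ± 5.34 CPM in compressed samples (mean ± SD, n = 6 per group). Its change was small and close to the threshold (log2 fold change -0.14, adjusted p = 0.0294). It no longer passed the test without control replicate 1 (adjusted p = 0.0645), control replicate 2 (0.0552) or control replicate 5 (0.0618), and it passed without compressed replicate 6 (log2 fold change -0.11, adjusted p = 0.00246). With each library's trend with transcript length removed, its log2 fold change was -0.09 and did not pass (adjusted p = 0.119).

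In the 7 steps from acetyl-CoA to farnesyl diphosphate, 4 genes fell, none rose and 3 did not pass the test, with a median log2 fold change of -0.19. Without compressed replicate 6, 6 of the 7 fell and the median was -0.34. The first 2 enzymes join acetyl-CoA units. Acat2, the cytosolic thiolase, fell by 32.4%, from 87.9 ± 4.21 CPM to 59.4 ± 8.02 CPM (mean ± SD, n = 6 per group, log2 fold change -0.57, SE 0.077, adjusted p = 3.98e-05), and its estimate was -0.65 without compressed replicate 6.

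Hmgcs1, the synthase that follows Acat2 and holds the sterol regulatory element printed above, was at 184 to 196 CPM in control libraries (median 194) and at 163 to 178 CPM in compressed libraries (median 174). The groups did not overlap. Its decrease was among the smaller ones, with a log2 fold change of -0.15 (SE 0.039, adjusted p = 0.00561), and it was -0.14 without compressed replicate 6.

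Of the kinases and the decarboxylase that turn mevalonate into isopentenyl diphosphate, Mvk alone passed the test with all libraries. Mvk, mevalonate kinase, fell with a log2 fold change of -0.32 (adjusted p = 0.0217), or -0.44 without compressed replicate 6. Its compressed replicates 1 to 5 held 26.4 to 30.3 CPM, below the 36.1 to 39.2 CPM of the controls, and compressed replicate 6 lay above all controls at 42.8 CPM. The call for Mvk was lost without compressed replicate 1 (adjusted p = 0.0518). Pmvk, phosphomevalonate kinase, did not pass the test with all libraries (log2 fold change -0.10, adjusted p = 0.506) and fell without compressed replicate 6 (-0.24, adjusted p = 7.41e-05) and with the trend of each library with transcript length removed (-0.16, adjusted p = 0.0261). Mvd, the decarboxylase, was at 99.0 ± 1.03 CPM in control and 98.6 ± 8.76 CPM in compressed samples (mean ± SD, n = 6 per group), did not pass the test with all libraries (log2 fold change -0.01, adjusted p = 0.941) or without compressed replicate 6 (-0.06, adjusted p = 0.0627), and its sign turned without compressed replicate 1, 3 or 5.

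Idi1, the isomerase that supplies the second building block of the isoprenoid chain, showed the largest decrease of the sterol enzymes. It was at 45.2 to 49.1 CPM in control libraries (median 47.8) and at 21 to 32.5 CPM in compressed libraries (median 29.7). The groups were well apart, with compressed replicate 6 lowest. Idi1 fell by 39.8% (log2 fold change -0.73, SE 0.086, adjusted p = 9.52e-06), and its estimate was -0.66 without that library.

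Fdps, which joins the building blocks to farnesyl diphosphate, had the highest level per transcript length of the 34 genes in both groups, 383 CPM per kilobase in control and 336 in compressed samples. Its compressed replicates 1 to 5 held 392 to 441 CPM, below the 514 to 540 CPM of the controls, whereas compressed replicate 6 held 689 CPM. With all libraries Fdps did not pass the test (log2 fold change -0.19, adjusted p = 0.213), while without compressed replicate 6 it fell (-0.34, adjusted p = 7.87e-09), as it did with the trend of each library with transcript length removed (-0.24, adjusted p = 0.00157). In GENCODE M21 a gene on the same strand, Gm43738, shares 26.7% of the exonic bases of Fdps. It is not among the gene identifiers of the deposited counts, so it held no counts of its own here.

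Of the 11 enzymes from farnesyl diphosphate to cholesterol, 8 fell, none rose and 3 did not pass the test, with a median log2 fold change of -0.25. Without compressed replicate 6 all 11 fell, and the median was -0.23. Sqle, the squalene epoxidase, was at 208 to 217 CPM in control libraries (median 210.0) and at 176 to 198 CPM in compressed libraries (median 194). The groups did not overlap. The log2 fold change of Sqle was -0.14 (SE 0.041, adjusted p = 0.0123), and -0.12 without compressed replicate 6.

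Lss, which folds the epoxide into lanosterol, fell with a log2 fold change of -0.25 (adjusted p = 0.0334), and without compressed replicate 6 the change was -0.17 (adjusted p = 0.000186). The call for Lss was lost without control replicate 1 (adjusted p = 0.0659), control replicate 2 (0.0620), control replicate 5 (0.0565), control replicate 6 (0.0567) or compressed replicate 1 (0.0564).

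Cyp51, the lanosterol demethylase, was at 167 to 183 CPM in control libraries (median 178) and at 132 to 161 CPM in compressed libraries (median 139). The groups were separate, and here compressed replicate 6 was the highest of its group and closest to the controls. Cyp51 fell by 19.8% (log2 fold change -0.32, SE 0.051, adjusted p = 0.000182), and its estimate was -0.36 without that library.

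The later steps remove methyl groups and move and reduce the double bonds of the ring. The 5 genes Nsdhl, Hsd17b7, Ebp, Sc5d and Dhcr7 all fell, with log2 fold changes of -0.18, -0.28, -0.43, -0.36 and -0.39 with all libraries and of -0.19, -0.23, -0.56, -0.37 and -0.37 without compressed replicate 6. Ebp, the sterol isomerase, was the only one of the 5 whose groups overlapped, since compressed replicate 6 held 46.5 CPM against 28.6 to 31.6 CPM in the other compressed and 41.4 to 47.1 CPM in control libraries. Dhcr7, the reductase of a final step and the gene mutated in Smith-Lemli-Opitz syndrome, fell from 64.6 ± 1.89 CPM to 49.3 ± 2.27 CPM (mean ± SD, n = 6 per group, adjusted p = 5.91e-06). Sc5d, the lathosterol desaturase, fell from 79.5 ± 2.00 CPM to 62.0 ± 2.10 CPM (adjusted p = 5.18e-06).

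The 3 genes of this stretch that did not pass the test with all libraries each fell without compressed replicate 6, but none of them passed when each library's trend with transcript length was removed and all libraries were kept. Msmo1, which starts removal of a methyl pair, was at -0.09 with all libraries (adjusted p = 0.451) and -0.20 without that library (6.49e-06) on the log2 scale, and at -0.10 with the trend removed (0.155). Tm7sf2, a sterol reductase, was at -0.16 (adjusted p = 0.406), -0.34 (2.59e-05) and -0.21 (0.0601). Fdft1, squalene synthase, was at -0.12 (adjusted p = 0.168), -0.19 (9.42e-06) and -0.06 (0.589). Fdft1 shares 18.3% of its exonic bases with Ctsb on the opposite strand, a gene with 928200 counts against 43088 for Fdft1, and Tm7sf2 shares 12.1% with Vps51 on the same strand. Whether counting used strand is not given in the sources used here, so part of the reads of these genes could belong to the neighbour.

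Summed over the 18 sterol enzymes, control libraries held 2191 to 2279 CPM and compressed replicates 1 to 5 held 1818 to 1893 CPM. Compressed replicate 6 held 2252 CPM, within the control range. Fdps alone, one of the genes with the shortest transcripts, held 689 CPM of the sum in that library.

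The 4 genes of fatty acid synthesis did not move together. Of these, Acaca and Fasn fell, Acss2 rose and Acly did not pass the test with all libraries. Acly, which cleaves citrate to acetyl-CoA in the cytosol, was at 488 to 537 CPM in control libraries (median 503) and at 324 to 612 CPM in compressed libraries (median 570.0). Compressed replicates 1 to 5 lay above all controls at 544 to 612 CPM, and compressed replicate 6 lay below all of them. With all libraries the log2 fold change of Acly was 0.08 (SE 0.120, adjusted p = 0.629), and without compressed replicate 6 Acly rose (0.19, adjusted p = 0.000107). With each library's trend with transcript length removed it did not pass (0.10, adjusted p = 0.235).

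Acss2, which makes acetyl-CoA from acetate, was at 23.7 to 27.4 CPM in control libraries (median 24.9) and at 35.2 to 37.9 CPM in compressed libraries (median 36.5). The groups were well apart and compressed replicate 6, at 35.5 CPM, lay within its group. Acss2 rose 1.44-fold (log2 fold change 0.53, SE 0.046, adjusted p = 5.54e-07), and its estimate was 0.53 without that library as well.

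Fasn, the synthase that builds palmitate, was at 509 to 593 CPM in control libraries (median 535) and at 138 to 396 CPM in compressed libraries (median 344). All compressed libraries lay below all controls, and compressed replicate 6 was far below the other 5, which held 315 to 396 CPM. Fasn fell by 41.1% (log2 fold change -0.76, SE 0.190, adjusted p = 0.00464), and its estimate was -0.61 without that library (adjusted p = 4.99e-09). Acaca, which supplies Fasn with malonyl-CoA, fell from 140 ± 9.54 CPM to 94.2 ± 29.1 CPM (mean ± SD, n = 6 per group, log2 fold change -0.57, adjusted p = 0.0286). Its call was lost without control replicate 1 (adjusted p = 0.0584) or compressed replicate 1 (0.0573), and without compressed replicate 6 its log2 fold change was -0.42 (adjusted p = 1.38e-05).

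All 6 desaturases and elongases fell, each without overlap between the groups, with a median log2 fold change of -0.55 (-0.49 without compressed replicate 6). Elovl6, which lengthens palmitate to stearate, was at 81.6 to 85.7 CPM in control libraries (median 83.7) and at 33.8 to 52.9 CPM in compressed libraries (median 49.3). The groups stood far apart, with compressed replicate 6 lowest. Elovl6 fell by 43.8%, the largest decrease of the 34 genes (log2 fold change -0.83, SE 0.087, adjusted p = 3.29e-06), and its estimate was -0.76 without that library.

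Scd1, a stearoyl-CoA desaturase that makes oleate, was at 262 to 278 CPM in control libraries (median 269) and at 131 to 189 CPM in compressed libraries (median 173). The groups did not overlap. Scd1 fell by 37.3% (log2 fold change -0.67, SE 0.074, adjusted p = 5.55e-06), and its estimate was -0.61 without compressed replicate 6.

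Scd2, its close relative and by level per transcript length the second of the 34 genes in both groups, was at 1696 to 1766 CPM in control libraries (median 1727) and at 1281 to 1668 CPM in compressed libraries (median 1565). The groups did not overlap, although the highest compressed library came near the lowest control. The log2 fold change of Scd2 was -0.16 (SE 0.059, adjusted p = 0.0435), and -0.11 without compressed replicate 6 (adjusted p = 0.00125). The call for Scd2 was lost without any one of the control libraries (adjusted p from 0.0624 without replicate 5 to 0.0811 without replicate 2) and without compressed replicate 1 (0.0709), 2 (0.0549) or 5 (0.0606).

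The desaturases of polyunsaturated fatty acids lie side by side in the genome. Fads2, which acts first on linoleic and linolenic acid, was at 434 to 456 CPM in control libraries (median 441) and at 223 to 295 CPM in compressed libraries (median 277). The groups were far apart. Fads2 fell by 38.5% (log2 fold change -0.70, SE 0.062, adjusted p = 6.91e-07), and its estimate was -0.65 without compressed replicate 6. Fads1, which acts later in the same chain, fell by 25.3% (log2 fold change -0.42, SE 0.060, adjusted p = 6.31e-05, or -0.37 without compressed replicate 6). Elovl5, the elongase between both steps, fell by 18.5% (log2 fold change -0.30, SE 0.052, adjusted p = 0.000373, or -0.26 without compressed replicate 6).

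**Figure D2:**
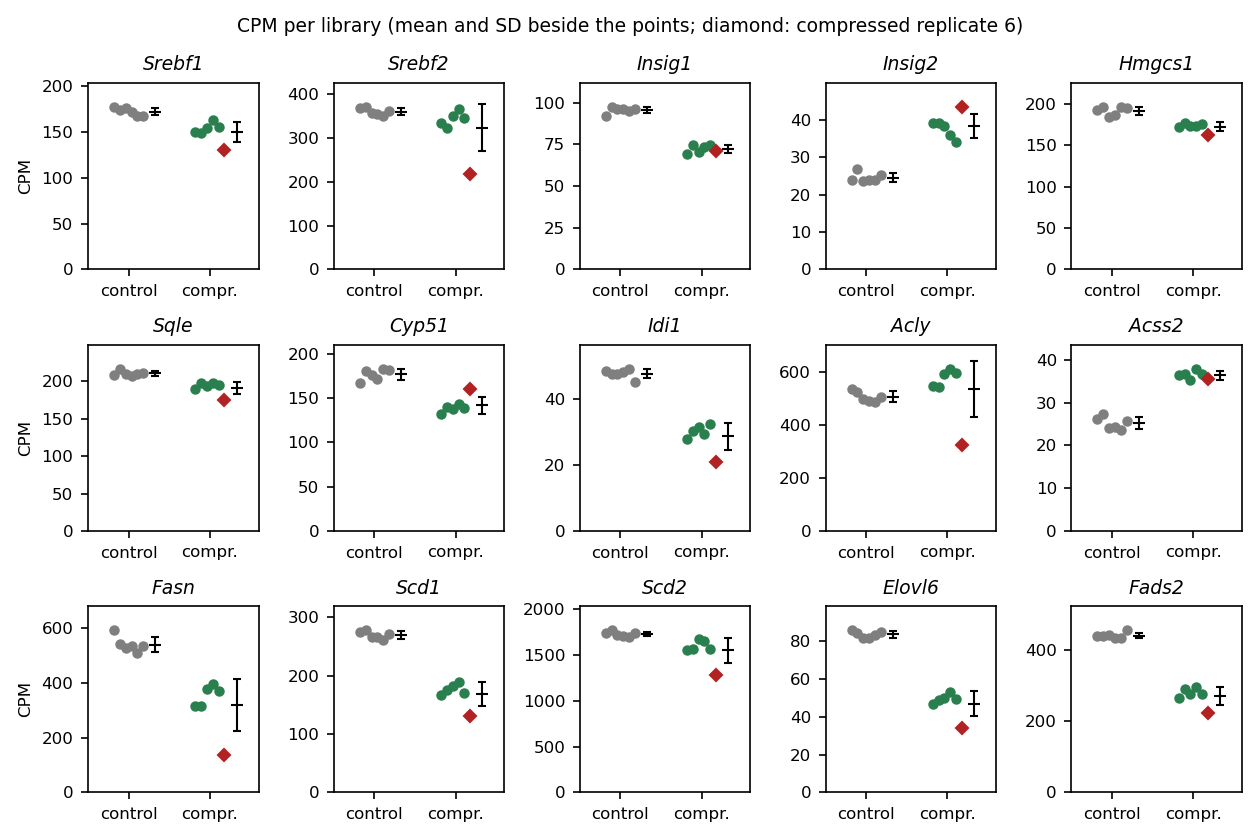
CPM of 15 of the genes in each library, control in grey and compressed in green, with compressed replicate 6 as a red diamond; black marks beside the points are the mean and SD of 6 libraries. Insig2 and Acss2 are higher in every compressed library, Srebf2 and Acly overlap between the groups, and compressed replicate 6 is the lowest of its group for Fasn, Idi1, Elovl6 and Fads2 and the highest for Cyp51 and Insig2.

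Summed over the 10 fatty acid enzymes, control libraries held 4216 to 4454 CPM, compressed replicates 1 to 5 held 3479 to 3830 CPM and compressed replicate 6 held 2583 CPM. Of these 10 enzymes 8 fell and 1 rose, and of the 18 sterol enzymes 12 fell and none rose. The median log2 fold change was -0.49 for the fatty acid enzymes and -0.22 for the sterol enzymes with all libraries, and -0.39 and -0.29 without compressed replicate 6. The difference between both groups of enzymes was not tested.

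**Figure D3:**
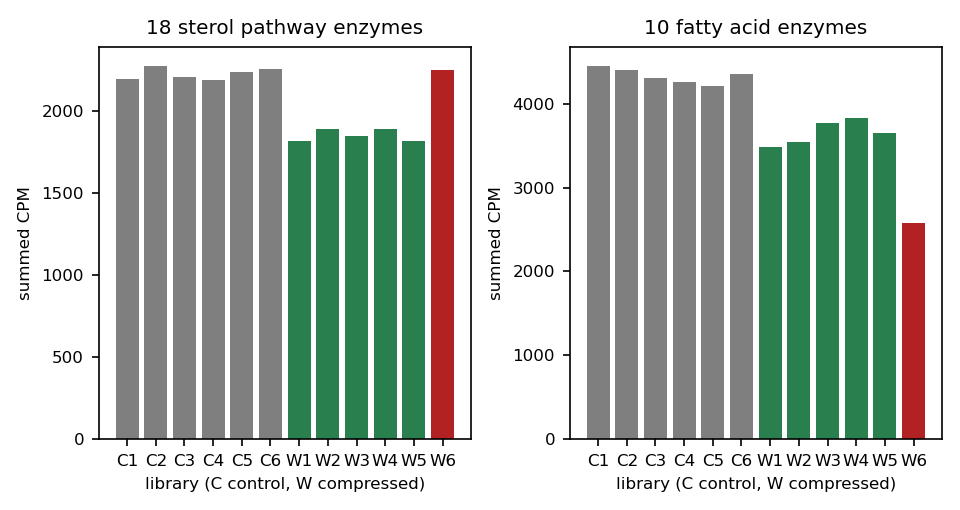
Summed CPM of the 18 sterol enzymes and of the 10 fatty acid enzymes in each library, with control libraries (C1 to C6) in grey, compressed replicates 1 to 5 (W1 to W5) in green and compressed replicate 6 (W6) in red. Compressed replicates 1 to 5 lie below every control in both panels, whereas compressed replicate 6 lies at 2252 CPM among the controls for the sterol enzymes and at 2583 CPM below all other libraries for the fatty acid enzymes.

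Ratios of counts between relatives within a library do not depend on how libraries are scaled to each other, and 5 such ratios were tested by a two-sided exact permutation test over the 924 ways to divide 12 libraries into equal groups. For each gene pair a count ratio also reflects transcript length, so only its change between groups is compared. Insig1 counts were 3.63 to 4.06 times those of Insig2 in control libraries (median 3.92) and 1.63 to 2.21 times in compressed libraries (median 1.87). The groups did not overlap, and the mean log2 ratio differed by -1.04 (exact p = 0.00216, the smallest that this design allows, adjusted over 5 ratios 0.00271).

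The balance within the other families also changed, except for the Srebf pair. The log2 ratio of Scd1 to Scd2 differed by -0.52 and that of Elovl6 to Elovl5 by -0.55 (exact p = 0.00216 and adjusted p = 0.00271 for each). The log2 ratio of Fads1 to Fads2 differed by 0.28 with the same p-values, and counts of Fads1 were 0.998 to 1.06 times those of Fads2 in control and 1.21 to 1.31 times in compressed libraries. In these 4 families every compressed library, replicate 6 included, lay outside the control range on the same side. Scd1 and Scd2 share 3.03% of the windows of 50 bases along the Scd1 transcript, and the other pairs share none.

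The log2 ratio of Srebf1 to Srebf2 differed by -0.02 (exact p = 0.909). It was -1.11 to -1.03 in control libraries, -1.18 to -1.12 in compressed replicates 1 to 5 and -0.73 in compressed replicate 6. Without that library the difference was -0.09 (exact p = 0.00216, adjusted over 5 ratios 0.00216). That is the smallest p that the remaining libraries, with fewer ways to divide them, allow.

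**Figure D4:**
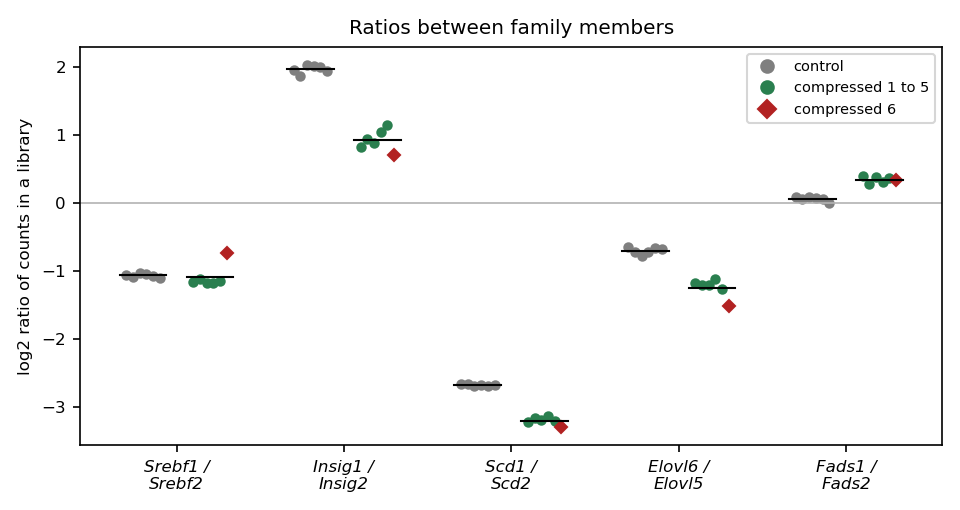
Log2 ratio of counts of 2 related genes in each library, control in grey, compressed replicates 1 to 5 in green and compressed replicate 6 as a red diamond, with black lines at the mean of each group. The ratio of Insig1 to Insig2 differs by -1.04 in compressed libraries, those of Scd1 to Scd2 and Elovl6 to Elovl5 are lower, that of Fads1 to Fads2 is higher, and for Srebf1 to Srebf2 compressed replicate 6 lies apart.

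Compressed replicate 6 often held the extreme value of its group. It was the lowest of the 6 compressed libraries for 19 genes, the highest for 11 and within the group for 4. Its log2 CPM minus the median of the other 5 ran from -1.49 for Acaca to 0.86 for Tm7sf2. Across the 34 genes this departure had a Pearson correlation of -0.875 and a Spearman correlation of -0.808 with log2 transcript length, and across 14657 tested genes with a length -0.496 and -0.616. These correlations are across genes of 1 library, which share its depth and are not independent replicates.

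Among the 34 genes, fold changes went with length less closely without that library. The log2 fold change of the 34 genes had a Pearson correlation of -0.326 with log2 transcript length with all libraries and -0.0982 without compressed replicate 6. Over the 14657 tested genes the correlation was -0.041 with all libraries and 0.0634 without it. In compressed replicates 1 to 5 alone, 29 genes lay below all controls and 3 above, and in 6 of the 29 compressed replicate 6 lay above all controls. The same share over all tested genes was not counted without compressed replicate 6. With all 12 libraries the groups did not overlap in 33.6% of tested genes. That comparison is stricter because it keeps compressed replicate 6, so its share cannot be set beside the 29 and 3 genes. When each library's trend with transcript length was removed before the test, 26 of the genes fell and 2 rose. In that setting 4326 of all tested genes were called higher and 4001 lower, against 3677 and 3283 in the main test.

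**Figure D5:**
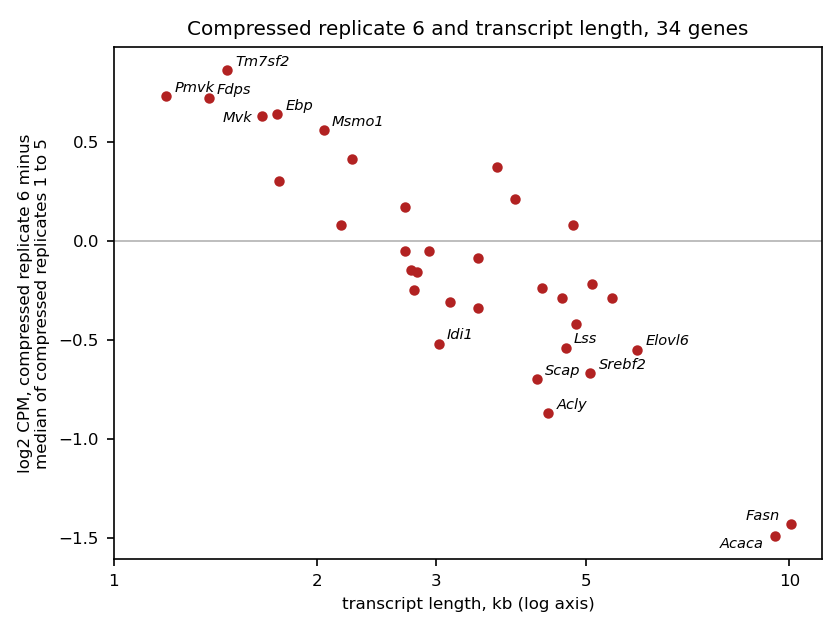
Log2 CPM of compressed replicate 6 minus the median of compressed replicates 1 to 5 against transcript length in kilobases on a log axis, for the 34 genes, with genes beyond 0.45 in size named. The points descend from Tm7sf2 at 0.86 to Acaca at -1.49, with a Pearson correlation of -0.875 on log2 length.

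Per kilobase of transcript, the order of levels among the 34 genes was led in control samples by Fdps (383 CPM per kilobase), Scd2 (317), Fads2 (140), Fads1 (133) and Acly (116). In compressed samples Fdps (336) and Scd2 (284) were followed by Acly (122), Fads1 (99.3), Msmo1 (89.0) and Fads2 (86.2). Without compressed replicate 6 the first 4 kept this order, and Fads2 (89.3 CPM per kilobase) stood before Msmo1 (82.6). Insig2 was at 9.09 CPM per kilobase in control and 14.2 in compressed samples (13.9 without compressed replicate 6), and Acss2, the lowest of the 34 in control samples, was at 8.60 and 12.4 (12.5 without that library). Elovl6 went from 14 to 7.89 CPM per kilobase and was the lowest in compressed samples with all libraries, whereas without compressed replicate 6 Tm7sf2 (7.39) was lower than Elovl6 (8.33). These levels are means over the libraries of a group and the order between neighbours was not tested.

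Beyond the 34 genes, 62 others of the same pathways were read, of which 54 had enough reads to be tested. Of these 54, 10 rose, 18 fell and 26 did not pass the test, with a median log2 fold change of -0.04, against 24.5% of all tested genes called higher and 21.9% called lower. Without compressed replicate 6, 17 rose and 24 fell, against 33.8% and 32.2% of tested genes. Of the 15 genes of sterol sensing and transport, all tested, 4 rose and 6 fell (6 and 8 without compressed replicate 6). Tmem97, an endoplasmic reticulum protein of sterol transport, fell (log2 fold change -0.73, adjusted p = 9.49e-06). Gramd1a and Gramd1b, which carry cholesterol from the plasma membrane to the endoplasmic reticulum, rose (0.66, adjusted p = 1.32e-06, and 0.34, adjusted p = 0.0334), as did Nr1h2, the liver X receptor beta (0.44, adjusted p = 7.57e-07). Nr1h3, the liver X receptor alpha, fell (-0.28, adjusted p = 0.0198), and of the proteases that release the Srebf factors Mbtps2 fell by 0.22 on the log2 scale (adjusted p = 0.0497) and Mbtps1 did not pass the test (-0.23, adjusted p = 0.0872).

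Of the 15 genes of isoprenoid and oxysterol metabolism, 13 were tested, none rose and 5 fell with all libraries, and 2 rose and 5 fell without compressed replicate 6. Lbr, a nuclear envelope protein that is also a sterol reductase of the same step as Tm7sf2, fell from 175 ± 4.83 CPM to 97.6 ± 3.67 CPM (mean ± SD, n = 6 per group, log2 fold change -0.84, adjusted p = 2.88e-09), without overlap between the groups. Pdss1 and Pdss2, which make the side chain of coenzyme Q, fell (-0.57, adjusted p = 1.56e-05, and -0.33, adjusted p = 0.000659), and so did Aacs, the acetoacetyl-CoA synthetase (-0.36, adjusted p = 5.16e-06).

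Of the 32 other genes of fatty acid metabolism, 26 were tested, 6 rose and 7 fell (9 and 11 without compressed replicate 6). Elovl1, an elongase of very long chains, fell from 148 ± 4.27 CPM to 106 ± 10.5 CPM (log2 fold change -0.49, adjusted p = 1.65e-05). Scd4, a relative of Scd1 near the detection limit at 1.36 ± 0.280 CPM in control and 0.762 ± 0.235 CPM in compressed samples, fell (log2 fold change -0.84, adjusted p = 0.00467). Hacd1, a dehydratase of the elongation cycle, rose from 6.80 ± 0.449 CPM to 12.2 ± 3.63 CPM (mean ± SD, n = 6 per group, log2 fold change 0.84, adjusted p = 0.000439). Cbr4, a reductase of mitochondrial fatty acid synthesis, rose (0.55, adjusted p = 0.000190). Without compressed replicate 6 each of the 12 genes named by the size of their change kept its direction and passed the test.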

How the data were processed

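RNA from 12 samples of RAW264.7 cells, 6 control and 6 compressed, was sequenced by the authors, who aligned the reads with STAR 2.7.2, and the submitters' processing notes name the GRCm39 assembly. What was deposited is 1 table of raw counts, whole numbers per Ensembl gene and library, in which no normalization was found. The annotation release, the counting program and its use of strand were not given in the sources used here. Names came from a separate list of gene names, by identifier, for 51948 identifiers that hold 99.5% of the counts. Transcript lengths came from GENCODE M21 (GRCm38), by identifier, for 52000 identifiers, and promoters from RefSeq (GRCm38.p6), by symbol. The length of a gene is that of its longest principal transcript.

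The software was edgeR 4.0.16 and DESeq2 1.42.0 in R 4.3.3, and SciPy 1.17.1 in Python 3.11.15. Genes kept by filterByExpr (groups of 6, minimum count 10) were scaled by TMM. The test was the quasi-likelihood F test of edgeR with condition as the only term, with Benjamini-Hochberg adjusted p of 0.05 or less over all tested genes called. CPM are counts per 1000000 of the TMM-scaled library size. The SE of a log2 fold change is its size over the square root of F, and so restates that test. Whether the spread between libraries or counting error limits precision was not tested for each gene. Promoter motifs were searched on both strands.

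The 34 genes and the lists of other pathway and marker genes were chosen with earlier results of these data known. Values over libraries are given for Srebf1, Srebf2, Insig1, Insig2, Hmgcs1, Sqle, Cyp51, Acly, Fasn, Scd1, Scd2 and the 4 largest changes in each direction (only 2 genes rose), and of each other list up to 4 called genes of largest change whose higher group averaged 1 CPM or more. Nr1h3, Mbtps1 and Mbtps2 were added for their role after their values were seen.

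Same-numbered control and compressed samples were not taken as pairs, since the correlation of their deviations from the group means was -0.12 to 0.040. Alternatives were a replicate block, removal of each library's trend with transcript length, an adjusted p of 0.01, DESeq2, scaling by RLE factors or by library size alone, a filter on a mean normalized count over 50 or none, and leaving out each library. The procedure was tested on simulated data.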

Additional observations from a re-analysis of the deposited data

Results flagged for a closer look

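Of 78 groups of 6 values looked at, which were the CPM of the 34 genes and 5 ratios in each condition, 25 held a sample whose gap to its nearest neighbour, as a part of the whole range of the group, was past Dixon's critical value. Chance alone flags about 1 in 20 groups. In 22 of the 25 the sample was compressed replicate 6, for 20 genes and 2 ratios, and transcript length went with its departure as given above; the part of length in each gene was not tested. Compressed replicate 6 lay far below the other 5 compressed libraries for Srebf2 (217 CPM), Scap (36.7), Stard4 (76.3), Lss (96.7), Dhcr7 (44.9), Acly (324), Fasn (138), Scd1 (131), Scd2 (1281), Elovl6 (33.8) and Fads1 (280.1 CPM). It lay far above them for Acat2 (75.6 CPM), Mvk (42.8), Pmvk (50.7), Mvd (116), Fdps (689), Fdft1 (113), Tm7sf2 (19.7), Msmo1 (248) and Ebp (46.5 CPM). Its log2 ratio was -0.73 for Srebf1 to Srebf2, above the rest, and -1.52 for Elovl6 to Elovl5, below the rest.

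The other 3 were controls. Tm7sf2 was at 15.7 CPM in control replicate 2, above the other controls, and Msmo1 was at 181 CPM in control replicate 1, below them. The log2 ratio of Fads1 to Fads2 was -0.00 in control replicate 6, below the other controls.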

How the results depend on the processing

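Over all alternatives, 18 to 29 of the 34 genes fell and 2 or 3 rose. The counts 29 and 3 are those without compressed replicate 6, and 18 is the count at an adjusted p of 0.01. At that threshold 2785 of all tested genes were called higher and 2426 lower. Of the 26 genes called, 20 kept their call and direction in every alternative, and the calls of Stard4, Mvk, Sqle, Lss, Acaca and Scd2 depended on the setting. With replicate number as a block, which the numbers do not justify as a pairing, 21 genes fell and 2 rose (3299 of all tested genes were called higher and 3094 lower), Stard4, Sqle and Scd2 no longer passed (edgeR adjusted p = 0.0565, 0.0541 and 0.0792), and the ratio of Srebf1 to Srebf2 differed by -0.02. With no low-count filter the same 3 genes lost their call. Across all tested genes, library size alone gave 3079 higher and 4050 lower calls against 3677 and 3283 with TMM, and 25 of the 34 genes fell. Mvd, which was not called, turned to 0.0025 with a mean normalized count over 50, and it ranged from -0.06 to 0.01 when 1 library was left out. The log2 ratio of Srebf1 to Srebf2 differed by -0.09 to -0.00 when 1 library was left out, lowest without compressed replicate 6. Where a call changed, the cause was not tested.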
